A study of Homo sapiens with 4 samples.

Results

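The sgRNAs described here were present in 3 of the 4 libraries of a pooled CRISPR-Cas9 knockout screen and almost missing from the remaining one, oxaliplatin replicate 1. They were chosen by their library-scaled counts (CPM, the count of an sgRNA divided by the total of its library and multiplied by 1e6). An sgRNA was eligible if it had at least 20 CPM in each of the PBS library, oxaliplatin replicate 2 and oxaliplatin replicate 3. It was called collapsed if its CPM in oxaliplatin replicate 1 was at most 1/32 of the lowest of those 3 values. Of 7142 sgRNAs, 4031 were eligible (56.4%) and 331 collapsed. This was 8.21% of the eligible sgRNAs (95% Clopper-Pearson interval, 7.38% to 9.10%) and 4.63% of the library. The 331 collapsed sgRNAs targeted 307 genes. Because the rule used these values, the collapse itself is described without a test.

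The screen was done in HCT116, an established human colon carcinoma line, carrying Cas9 and a library against genes of metabolism. The library held 1773 genes with 4 sgRNAs each and 50 entries with a single sgRNA. One culture group received PBS as the vehicle control and was sequenced as 1 library, and the other received 10 µM oxaliplatin and was sequenced as 3 libraries, all after 7 days. The comparison asks which metabolic genes alter the growth or survival of these cells under oxaliplatin, a platinum drug that crosslinks DNA.

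In such a pool each cell usually carries 1 sgRNA, which is integrated into its genome and read back by PCR and sequencing, so the count of an sgRNA stands for the number of cells that still carry it. Cells that lose a gene they cannot do without grow slowly or die, and their sgRNAs become rare at any treatment. Among metabolic genes, those for nucleotide synthesis, for dolichol-linked sugars that are needed for N-glycosylation, for one-carbon units and for iron-sulfur clusters are of this kind in most dividing human cells.

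Oxaliplatin replicate 1 stood apart from the other libraries in its depth and in how unevenly its counts were spread. Its total was 27563013 counts, against 8934799 in PBS, 10494731 in replicate 2 and 11146921 in replicate 3. Although it was the deepest, the 251 most abundant sgRNAs held 50% of its counts, while 885 to 1066 sgRNAs were needed for 50% in the other 3 libraries. The median sgRNA had 18.0 CPM in replicate 1 and 66.2 to 79.0 CPM in the other libraries. The part of this uneven distribution in the collapse was not tested, but the scaling of the libraries decided how many sgRNAs met the rule. With the libraries scaled by trimmed mean of M values (TMM) in place of their totals, 51 sgRNAs collapsed, and with scaling by median ratios 52 did. All 51 and all 52 were among the 331. PBS stood apart in another way, in the sgRNAs that it lacked. There 1354 sgRNAs were at 0 counts, against 164 in replicate 1, 22 in replicate 2 and 2 in replicate 3.

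The collapse was deep and was measured at counts well above 0 for most members. Over the 331 sgRNAs the median CPM was 143 in PBS, 85.4 in replicate 2, 85.8 in replicate 3 and 1.12 in replicate 1. Together they held 6.06% of the counts in PBS, 4.28% in replicate 2 and 4.08% in replicate 3, but 0.0592% in replicate 1. The median collapsed sgRNA was 57.0-fold below the lowest of its other libraries, and the median of the other eligible sgRNAs was 2.12-fold below. In counts, the members ranged from 1 to 337 in replicate 1, with a median of 31. Of the 331, 9 had 1 to 3 counts, 38 had under 10, 256 had 10 to 99 and 37 had 100 or more. None was at 0, although 164 sgRNAs of the whole library were at 0 in replicate 1. In the other oxaliplatin libraries the members were steady: replicates 2 and 3 differed by a median of 1.27-fold among them, the same as among the other eligible sgRNAs.

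The lowest relative abundance was that of sgRNA_633 against COX4I1, a subunit of cytochrome c oxidase. It had 170 CPM in PBS, 83.5 in replicate 2, 49.4 in replicate 3 and 0.0363 in replicate 1, where it was read once (1 count). That is 1362-fold below the lowest other library, with a 95% counting interval of 244.5 to 53814. The interval is wide because it rests on a single count. It covers the counting error of replicate 1 only, because amplified reads carried no molecular identifier and can come from one molecule.

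Next came sgRNA_2022 against MME, the membrane peptidase neprilysin, which was 764-fold below (137 to 30187), and sgRNA_704 against CPT1A, the enzyme that commits long-chain fatty acids to mitochondrial oxidation, which was 732-fold below (131 to 28909). Each of these also had 1 count in replicate 1. The sgRNA_4662 against NT5C3A, a pyrimidine nucleotidase, was 623-fold below (213 to 3022) with 3 counts. For these members the size of the collapse was limited by counting.

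Further sgRNAs among the lowest 10 had 3 to 6 counts in replicate 1. They targeted ALDH1A2, which makes retinoic acid (561-fold below, 219 to 2058), DDOST, a subunit of the oligosaccharyltransferase (465-fold, 214 to 1267), PFKFB1, which sets the level of fructose 2,6-bisphosphate (372-fold, 127 to 1804), ACOT6, an acyl-CoA thioesterase (369-fold, 169 to 1004), and MANEA, a Golgi endomannosidase (340.4-fold, 116.5 to 1651). Of these, DDOST is essential in most cultured cells. Its sgRNA ranged from 101 to 241 CPM in the other libraries, far above replicate 1.

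At the limit itself the values ran on without a step. Just inside it were sgRNAs against HS3ST4 (3.08% of the lowest other library), MTHFSD (3.09%) and FPGS (3.10%), and just outside it sgRNAs against NDUFB5 (3.14%), ALDH9A1 (3.15%) and CYP2A7 (3.15%). Of the eligible sgRNAs, 70.5% were below their lowest other library in replicate 1, 25.9% were at or under 1/8 of it, 15.4% at or under 1/16, 3.37% at or under 1/64 and 1.17% at or under 1/128.

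Collapsed sgRNAs of one gene met about as often as their number alone would give. Of the 307 genes, 285 had 1 collapsed sgRNA, 20 had 2, and 2 had 3, and no gene had 4. The 22 genes with at least 2 compare with 22.2 genes if every eligible sgRNA collapsed independently at the overall 8.21%, and the 2 genes with 3 compare with 0.770. These are products of the shares over the 1325 genes that had at least 2 eligible sgRNAs, with no test attached. Seen from the members, 52 of the 564 eligible other sgRNAs of their genes had also collapsed (9.22%, each counted once per member). With TMM or median-ratio scaling 0 genes had 2 collapsed sgRNAs, where 0.566 and 0.589 would be met by independence.

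MPST and GALNT12 were the genes with 3 collapsed sgRNAs. MPST encodes mercaptopyruvate sulfurtransferase, which transfers sulfur from a product of cysteine breakdown. Its sgRNA_2048 had 329.8 CPM in PBS, 1.71 in replicate 1, 146 in replicate 2 and 110 in replicate 3. Its sgRNA_2047 had 102 CPM in PBS, 0.689 in replicate 1, 41.8 in replicate 2 and 46.2 in replicate 3, and sgRNA_2046 had 150.3, 1.31, 54.3 and 46.1 CPM in the same order. The fourth, sgRNA_2045, had 91.7 CPM in PBS, 68.2 in replicate 1, 387 in replicate 2 and 221 in replicate 3, so it was 1.34-fold below its lowest other library and did not share the collapse.

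GALNT12 encodes a transferase that starts mucin-type O-glycans. Its sgRNA_5628 was 110.3-fold below the lowest other library, sgRNA_5627 56.1-fold and sgRNA_5625 52.5-fold, from 3.59 CPM or less in replicate 1. The fourth, sgRNA_5626, was also the lowest in replicate 1 (43.9 CPM against 226 to 427.5 CPM) but by 5.15-fold. All 4 sgRNAs of GALNT12 were thus lowest in replicate 1, and 3 of them met the rule. Being lowest there was common, at 70.5% of all eligible sgRNAs.

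Of the 20 genes with 2 collapsed sgRNAs, 6 were on the list of core essential metabolic genes. DDOST had the deepest of these, sgRNA_954, at 0.218 CPM in replicate 1 against 101 to 241 CPM in the other libraries. Its sgRNA_956 had 0.435 CPM against 29.9 to 63.0 CPM, and sgRNA_955, with 43.8 CPM against 738 to 1013 CPM, was 16.8-fold below without meeting the rule. In contrast, sgRNA_953 of the same gene had 152 CPM in replicate 1 and 31.6 to 96.4 CPM elsewhere. The 4 sgRNAs of DDOST therefore stood on both sides of the other libraries.

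PISD, which makes phosphatidylethanolamine in mitochondria, was the core gene whose 4 sgRNAs were all eligible and all low. In replicate 1 they had 1.02, 1.09, 9.83 and 15.2 CPM, which was 1.67%, 1.94%, 5.92% and 8.49% of their lowest other library. In the other 3 libraries they ranged from 56.2 to 763 CPM. None of the 4 overlapped with its other libraries. Over all eligible sgRNAs 70.5% were below their lowest other library in replicate 1, and 25.9% were at or under 1/8 of it.

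For AMD1, which makes the aminopropyl donor for polyamines, sgRNA_296 was 211-fold and sgRNA_293 35.2-fold below, and sgRNA_294 was 5.98-fold below. For MTHFD1, an enzyme of folate-bound one-carbon units, sgRNA_2062 was 87.0-fold and sgRNA_2064 85.6-fold below, but sgRNA_2063 had 99.2 CPM in replicate 1, inside the range of its other libraries (68.2 to 141 CPM). The fourth, sgRNA_2061, was under 20 CPM in replicate 2 and so was not eligible. In replicate 1 it too was inside the range of its other libraries. For MTHFD1, sgRNA_2063 and sgRNA_2061 thus kept their abundance while sgRNA_2062 and sgRNA_2064 collapsed.

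FDX2 encodes the mitochondrial ferredoxin of iron-sulfur cluster assembly, and DOLK the kinase that makes dolichol phosphate. Both eligible sgRNAs of FDX2 collapsed, sgRNA_6134 by 108-fold and sgRNA_6133 by 105-fold. Both eligible sgRNAs of DOLK collapsed too, sgRNA_4043 by 103-fold and sgRNA_4041 by 56.1-fold. Their other sgRNAs could not be judged by the rule because PBS held almost none of them: sgRNA_4042 against DOLK, for example, had 1 count in PBS, 1121 in replicate 2 and 1014 in replicate 3. In replicate 2, sgRNA_6135 against FDX2 (19.3 CPM) and sgRNA_4044 against DOLK (14.6 CPM) were also under 20 CPM. The latter was so in replicate 3 too (19.3 CPM).

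The other 14 genes with 2 collapsed sgRNAs came from varied parts of metabolism. BCKDHA (branched-chain keto acid dehydrogenase) had the member with the least CPM of these genes, sgRNA_436, at 0.109 CPM in replicate 1 against 24.0 to 94.5 CPM. ARG2 (mitochondrial arginase) had sgRNA_356 at 0.145 CPM against 42.6 to 214 CPM. The lysosomal enzymes ARSA (arylsulfatase A) and MAN2B1 (alpha-mannosidase) were among them, with sgRNA_359 of ARSA 108-fold and sgRNA_1947 of MAN2B1 47.7-fold below.

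GDPD2, a glycerophosphodiester phosphodiesterase, had sgRNA_4892 at 185-fold below. COLGALT2, a collagen galactosyltransferase, had sgRNA_4098 at 62.5-fold and sgRNA_4099 at 52.8-fold below. CEL, the carboxyl ester lipase of pancreatic juice, had sgRNA_578 at 73.2-fold below. ADCY1, the adenylyl cyclase known from neurons, had sgRNA_105 and sgRNA_108 at 47.6-fold and 47.5-fold below.

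The remaining 6 genes were ALDH3B2 (an aldehyde dehydrogenase), ACAD10 (an acyl-CoA dehydrogenase family member), FUT10 (a fucosyltransferase family member), MTHFSD, GALNTL6 (a GalNAc-transferase family member) and CYB5R2 (a cytochrome b5 reductase). Their collapsed sgRNAs were 32.4-fold (MTHFSD, sgRNA_5451) to 49.6-fold (ALDH3B2, sgRNA_241) below. For FUT10 all 4 sgRNAs were lowest in replicate 1, at 0.653 to 4.86 CPM, as were 70.5% of all eligible sgRNAs. However, 2 of the 4 were under 20 CPM in another library and so were not eligible.

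The 22 genes had 42 further sgRNAs, of which 23 were eligible. Of these 23, 15 were below their lowest other library in replicate 1, with 5 at or under 1/8 of it, and their median log2 ratio to the lowest other library was -0.92 (-1.33 over all eligible sgRNAs). In 6 of the 22 genes every eligible sgRNA had collapsed. In 4 genes, holding 6 such sgRNAs, an eligible sgRNA was instead higher in replicate 1 than in all 3 other libraries.

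ACAD10 was one of these 4 genes. Its sgRNA_5787 had 1528 CPM in replicate 1 against 84.8 to 315 CPM elsewhere, and sgRNA_5785 had 372 CPM against 47.8 to 70.6 CPM. In the same library its sgRNA_5786 had 0.798 CPM and sgRNA_5788 had 1.63 CPM. GDPD2 was alike: sgRNA_4889 and sgRNA_4890 had 275 and 233 CPM in replicate 1, above all their other libraries, beside 0.435 and 1.63 CPM for its collapsed sgRNAs. Over all 307 genes, 112 of 487 eligible sgRNAs that had not collapsed (23.0%) were above all 3 other libraries in replicate 1, and in genes without a collapsed sgRNA 527 of 3213 were (16.4%). This difference was not tested.

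Core essential genes held more of the collapsed sgRNAs than of the eligible ones. The gene lists were drawn up from general knowledge, but with earlier results of these data known, so the shares are a description. From a list of 99 metabolic genes that most human cell lines need, 41 of 196 eligible sgRNAs collapsed. This was 20.9% (95% Clopper-Pearson interval, 15.4% to 27.3%). Among the other genes 290 of 3835 did (7.56%), and on a list of 90 genes with tissue-restricted expression 12 of 195 did (6.15%, 3.22% to 10.5%). The core list thus made up 12.4% of the collapsed and 4.86% of the eligible sgRNAs. None of the 42 eligible single-sgRNA entries collapsed. An approximate upper limit for their share was 7.14%. It is not a Clopper-Pearson limit, so it cannot be set against the intervals given here or place these entries below the other genes. The intervals cover counting of sgRNAs in these libraries and not the spread between cultures, and sgRNAs of one gene share their target.

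The core excess was present at each limit and with each scaling tried. At or under 1/16 of the lowest other library were 30.1% of core, 15.4% of all and 12.3% of tissue-restricted eligible sgRNAs, and at or under 1/64 were 12.8%, 3.37% and 3.08%. The median log2 ratio to the lowest other library was -2.26 for core sgRNAs, -1.33 over all and -1.37 for tissue-restricted ones. The share of core sgRNAs below their lowest other library at all, 71.9%, was close to the 70.5% over all eligible sgRNAs. With TMM scaling, 9 of 185 core sgRNAs collapsed (4.86%) against 1.34% over all. Across the main setting and 8 others the core share was 1.95 to 3.78 times the overall one.

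The median core member was further below its lowest other library than the median of the rest, 87.0-fold against 55.0-fold, but in replicate 1 itself their median CPM was alike, 1.16 for core and 1.12 for the other members. The deepest members of all were not core. Still, 18 of the 72 members that were more than 100-fold below were core, where core sgRNAs made up 12.4% of all 331 members. Among the deepest besides DDOST were DAD1, a subunit of the oligosaccharyltransferase (sgRNA_889, 327-fold), GMPPB, which makes GDP-mannose (sgRNA_4455, 279-fold), COASY, which completes coenzyme A (sgRNA_5784, 253-fold), and RRM1, the large subunit of ribonucleotide reductase (sgRNA_2813, 225-fold). The 6 core genes with at least 2 collapsed sgRNAs compare with 5.63 if core sgRNAs collapsed independently at the core share, and with 0.946 at the overall share. The 16 other genes compare with 18.1 at their own share. Of 69 eligible other sgRNAs of the core members' genes, each counted once per member, 12 had also collapsed (17.4%, against 20.9% of core sgRNAs). In these genes, 34 of 51 eligible sgRNAs that had not collapsed were below their lowest other library. Over all eligible sgRNAs, collapsed ones included, that share was 70.5%.

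Grouped by pathway, 229 of the 331 members belonged to none of the 14 lists, and 7.43% of the eligible sgRNAs outside the lists had collapsed. The share was 19.2% for folate and one-carbon metabolism (10 of 52), 16.8% for dolichol, N-glycan and glycosylphosphatidylinositol (GPI) anchor assembly (16 of 95), 16.3% for mevalonate and sterol synthesis (7 of 43) and 15.3% for nucleotide synthesis (11 of 72). It was 14.5% for phospholipid and sphingolipid synthesis (8 of 55), 12.5% for heme and iron-sulfur clusters (4 of 32) and 12.3% for glycolysis and the pentose phosphate pathway (8 of 65). Respiration was nearer to the overall 8.21%, with 7 of 91 for complexes III and IV, cytochrome c and coenzyme Q (7.69%), 6 of 96 for complex I (6.25%) and 3 of 51 for the tricarboxylic acid cycle and pyruvate dehydrogenase (5.88%). Coenzyme A, flavin and NAD had 2 of 32 (6.25%), and glutathione and peroxide defence 3 of 53 (5.66%). Each list rests on few collapsed sgRNAs, and none was tested against the others.

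In the glycan assembly list the collapsed sgRNAs were mostly those of core genes. There 10 of 27 core sgRNAs collapsed (37.0%), on DDOST, DOLK, ALG14, ALG2, DAD1, DHDDS, DPAGT1 and GMPPB, which build or transfer the dolichol-linked oligosaccharide or make its precursors. Of the list's other sgRNAs 6 of 68 did (8.82%), on ALG12, DPM2, PIGK, PIGL, PIGM and PIGN, most of which serve GPI anchors. The median log2 ratio to the lowest other library over the 95 eligible sgRNAs was -2.75, the lowest of the lists.

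Folate and one-carbon metabolism was split in the same way, with 5 of 14 core sgRNAs (35.7%) and 5 of 38 others (13.2%). The core ones included those against MTHFD1, AHCY and MAT2A. MAT2A, which makes S-adenosylmethionine, had sgRNA_1966 at 1.20 CPM in replicate 1 against 135 to 194 CPM. Its sgRNA_1968 was 21.9-fold below, but its sgRNA_1965 had 213 CPM in replicate 1 against 81.1 to 178 CPM. In nucleotide synthesis 7 of 40 core sgRNAs (17.5%) and 4 of 32 others (12.5%) collapsed, the core ones including RRM1, DTYMK, GART, GMPS, GUK1 and ADSS. The other eligible sgRNAs of RRM1 and DTYMK lay on both sides. For RRM1, sgRNA_2814 had 127 CPM in replicate 1 against 72.4 to 82.5 CPM, and sgRNA_2816 was 19.7-fold below. For DTYMK, sgRNA_1041 had 769 CPM against 57.0 to 101 CPM. Its sgRNA_1044 and sgRNA_1042 were 18.7-fold and 12.0-fold below.

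In the mevalonate list, sgRNA_2943 against SQLE, the squalene epoxidase, was 116-fold below. In glycolysis, sgRNA_1322 against GAPDH was 155-fold below, and in the pentose phosphate pathway sgRNA_4075 against RPIA, the ribose-5-phosphate isomerase, was 89.6-fold below. Other eligible sgRNAs of these genes lay on both sides. For GAPDH, sgRNA_1321 had 3868 CPM in replicate 1 against 388 to 693 CPM, sgRNA_1324 was inside its range elsewhere and sgRNA_1323 was 5.5-fold below. For RPIA, sgRNA_4074 had 249 CPM against 137 to 167 CPM, and sgRNA_4076 was 3.63-fold below. The phospholipid list was led by CDS2, which makes CDP-diacylglycerol (sgRNA_3373, 149-fold), and PGS1, which starts cardiolipin synthesis (sgRNA_3583, 84.6-fold). In heme synthesis, sgRNA_212 against ALAS1, the first enzyme, was 122-fold below.

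Among respiratory genes, OXA1L, the inner membrane insertase, had sgRNA_2323 at 202-fold below, and the complex I subunits NDUFA8 and NDUFAB1 had sgRNA_2129 at 125-fold and sgRNA_2141 at 97.1-fold below. NDUFAB1 also carries the acyl chain for lipoic acid and iron-sulfur assembly. SDHD, the membrane anchor of succinate dehydrogenase, had sgRNA_2859 at 168-fold below, and CS, citrate synthase, had sgRNA_726 at 63.3-fold below. The redox genes GLRX and SOD2 had sgRNA_1421 at 78.1-fold and sgRNA_2922 at 40.7-fold below. From the tissue-restricted list the lowest were ADH1B, the liver alcohol dehydrogenase (sgRNA_141, 221-fold), and SULT2A1, a steroid sulfotransferase (sgRNA_2994, 192-fold).

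The same rule was then turned on each of the other libraries. With PBS as the low library, 563 of 3179 eligible sgRNAs collapsed (17.7%), on 67 genes with at least 2, against 62.9 if independent. Among those, core sgRNAs collapsed at 16.5% (21 of 127) and tissue-restricted ones at 18.1% (28 of 155). With oxaliplatin replicate 2 or replicate 3 as the low library, 0 of 2651 and 0 of 2583 eligible sgRNAs collapsed. These counts are linked, because each of replicates 2 and 3 sets the limit for the other.

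The members were next compared between oxaliplatin and PBS with edgeR's quasi-likelihood test, fitted over all tested sgRNAs with Benjamini-Hochberg adjustment. With 1 PBS library, the fit takes its spread to be that between the oxaliplatin libraries. Nothing in the labels says that the libraries came from separate cultures, so the p-values measure only the spread between these libraries, which may be technical. The fit with all 3 oxaliplatin libraries says nothing about the members beyond the rule, since the gap of at least 32-fold between replicate 1 and replicates 2 and 3 by which they were chosen enters it as spread between replicates. In it 0 of the 331 members were called lower and 0 higher at an adjusted p under 0.05, and 0 had an unadjusted p under 0.05. DESeq2 also called 0, with 1 lower at an unadjusted p under 0.05. Of the 4031 eligible sgRNAs 0 were called in either direction by edgeR, and before adjustment 37 were lower and 12 higher at that threshold. Of all 7126 tested sgRNAs, 0.0% were called lower and 8.31% higher by edgeR, and the share called higher was 0.0% with scaling by library totals and 28.4% with DESeq2. The common dispersion was 0.795 with all libraries and 0.111 without replicate 1.

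Oxaliplatin replicates 2 and 3 against PBS leave replicate 1 out, although both take part in the rule through the minimum of 20 CPM and the lowest value. There 68 of the 331 members were lower (20.5%) and 18 higher (5.44%) at an adjusted p under 0.05 in edgeR's quasi-likelihood test. Over all tested sgRNAs 15.4% were lower and 38.3% higher, and over the eligible ones 15.8% and 15.4%. The median log2 fold change, oxaliplatin over PBS, was -0.32 for the members and -0.02 for the eligible sgRNAs. With scaling by library totals, which moved the median over all tested sgRNAs from 0.45 to 0.13, 100 members were lower and 12 higher. No test was made of members against other sgRNAs.

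Members with the lowest fold changes in that comparison targeted PSPH, the last enzyme of serine synthesis, MME, and ALOX12, a lipoxygenase. The PSPH sgRNA had 521 CPM in PBS, 43.7 in replicate 2, 75.0 in replicate 3 and 0.653 in replicate 1, a log2 fold change of -2.84 in replicates 2 and 3 (edgeR adjusted p = 6.66e-10). The MME sgRNA had 228 CPM in PBS, 27.7 in replicate 2 and 30.8 in replicate 3 (-2.65, edgeR adjusted p = 4.17e-08). The ALOX12 sgRNA had 241.5, 33.7 and 44.6 CPM (-2.32, edgeR adjusted p = 1.26e-06). These 3 sgRNAs were lower than PBS in replicates 2 and 3. That they were lowest in replicate 1 follows from the rule.

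Among the core members more were called higher than lower in replicates 2 and 3. Of the 41, 8 were called higher (19.5%) and 2 lower (4.88%), with a median log2 fold change of 0.41. Of the 196 eligible core sgRNAs 30 were called higher (15.3%) and 20 lower (10.2%), with a median of 0.11. Over all eligible sgRNAs 15.4% were higher and 15.8% lower. The difference from these shares rests on few sgRNAs and was not tested. With scaling by library totals the core members split 7 higher and 7 lower. The higher ones targeted PISD with both collapsed sgRNAs, AASDHPPT, DTYMK, CDIPT, DPAGT1, ALG2 and PMVK.

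For sgRNA_5364 against AASDHPPT, which activates acyl carrier proteins, the values were 52.7 CPM in PBS, 1.23 in replicate 1, 236 in replicate 2 and 207 in replicate 3, a log2 fold change of 2.40 over replicates 2 and 3 (edgeR adjusted p = 1.41e-05). For sgRNA_1043 against DTYMK, the thymidylate kinase, they were 65.6, 1.81, 226 and 236 CPM in the same order, a log2 fold change of 2.13 (edgeR adjusted p = 9.68e-05). For sgRNA_4244 against PISD the log2 fold change was 2.48 (edgeR adjusted p = 7.08e-06). These sgRNAs were higher than PBS in replicates 2 and 3. That they were lower than PBS in replicate 1 follows from the rule. The 2 core members that were lower targeted GMPPB (-1.49, edgeR adjusted p = 0.00185) and RPIA (-1.24, edgeR adjusted p = 0.0145).

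PBS was the lowest of the other libraries more often for core members than for the rest. It was so for 18 of the 41 core members (43.9%) and 49 of the 290 other members (16.9%). Among eligible sgRNAs that had not collapsed it was so for 48 of 155 core ones (31.0%) and for 1144 of 3700 in all, so core members lay above and the other members below that share. The median CPM of the core members was 93.7 in PBS, 116 in replicate 2 and 118 in replicate 3, and that of the other members was 145 in PBS, 81.1 in replicate 2 and 82.3 in replicate 3. Core members thus had their lower median in PBS, and the other members in replicates 2 and 3. This difference was not tested.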

How the data were processed

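The authors deposited raw counts per sgRNA for each library. The submitters' notes name MAGeCK for counting and the mouse build mm10. The MAGeCK version and its options were not given in the sources used here. No genome coordinate was used. The sample tables held the same values as the series table. CPM was computed from library totals with Python 3.11.15 (numpy 2.4.6, pandas 2.3.3, scipy 1.17.1), where 1 count was 0.0363 to 0.112 CPM. Counting intervals are 95% exact Poisson intervals for the count in replicate 1. The lowest other CPM was held fixed, so its own counting error is left out. Counts were tested with edgeR 4.0.16 (R 4.3.3; TMM, quasi-likelihood, at least 10 counts summed over libraries), checked on simulated counts. DESeq2 1.42.0, other scalings, filters, limits and leaving out libraries were alternatives.

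The members and the gene lists were chosen with earlier results of these data known. Named are all genes with 2 or more collapsed sgRNAs, the 10 sgRNAs with the lowest ratio, 3 on each side of the limit, the lowest 2 per list and, beside these, sgRNAs called by edgeR that were chosen after their values were seen. Some genes that this rule names are not reported here. Of 307 gene symbols, 303 are current in RefSeq's human gene table, and FUT10 and ADSS are now POFUT3 and ADSS2.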

Additional observations from a re-analysis of the deposited data

How the results depend on the processing

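The number of collapsed sgRNAs (331) and of genes with at least 2 (22) depended on the limits. A minimum of 10 CPM gave 412 and 42, and one of 50 CPM gave 213 and 9. A limit of 1/16 gave 621 and 78, and one of 1/64 gave 136 and 3. Median-ratio scaling gave 52 and 0, TMM 51 and 0, and leaving PBS out 569 and 54. The number of genes if independent moved with them, to 33.6, 9.90, 73.5, 3.90, 0.589, 0.566 and 61.9 in that order. Replicate 1 thinned to the PBS total gave 337 and 24, with 312 sgRNAs shared. The core share of the collapsed sgRNAs (12.4%) was 18.4% at 1/64, 17.3% with median ratios and 17.6% with TMM, and 9.50% to 15.0% in the other settings. With all oxaliplatin libraries, edgeR's calls among the members ranged from 0 to 68 lower and from 0 to 18 higher on leaving out each oxaliplatin replicate in turn. The upper values are those without replicate 1, whose gap to the other replicates is what the rule selects. For replicates 2 and 3 against PBS, the other scalings, filters and DESeq2 gave 54 to 100 lower and 12 to 19 higher. Leaving out a further replicate there leaves 1 library a group, so it was not run. No paired analysis was possible because the labels give the PBS library no replicate number. PBS is 1 library, and replicate 1 is 1 library, so no collapse has a replicate.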

Other observations

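A weaker limit shows genes whose sgRNAs were low together. Of 1325 genes with at least 2 eligible sgRNAs, 65 had all of them at or under 1/8 of the lowest other library in replicate 1, where 48.6 would be met by independence at the overall 25.9%. Core genes were 9 of the 65, against 9.44 at the core share. With at least 3 eligible sgRNAs there were 13 such genes (10.1 if independent), 11 of which had a collapsed sgRNA. Every collapsed sgRNA also meets this weaker limit (8.21% of the eligible ones against 25.9%), so the 11 follows in part from the choice. COQ10A, which binds coenzyme Q in mitochondria, and PISD had 4 eligible sgRNAs each. For COQ10A they were at 1.05 to 11.2 CPM in replicate 1 and 44.8 to 612 CPM in the other libraries. The others with a collapsed sgRNA included PTDSS2 (phosphatidylserine synthase), PGS1, ACACA (acetyl-CoA carboxylase), HK3 (a hexokinase), ARSA and GLB1 (lysosomal beta-galactosidase). These genes were chosen after their values were seen, and no test was made.

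Gene symbols were also grouped by shared stem, after the values were seen and with no test, beside an overall share of 8.21%. Among 35 stems, GALNT (O-glycan starting transferases) had 7 of 41 eligible sgRNAs (17.1%), 3 of them on GALNT12, and ALDH (aldehyde dehydrogenases) 7 of 50 (14.0%). CYP (cytochromes P450) had 5 of 114 (4.39%) and CHST (carbohydrate sulfotransferases) 1 of 45 (2.22%). In 5 stems with 21 to 42 eligible sgRNAs each 0 collapsed, and at the overall share so few sgRNAs would give only a handful. The stem with 42 was the shared label of the single-sgRNA entries already described, not a gene family. The others were AKR, ENTPD, GPX and NAT, with 21 to 25 eligible sgRNAs each.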
